A study of Homo sapiens with 6 samples.

Results

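Members of the ETS family of transcription factors were compared between DUS1L knockout and wild-type A375 cells, an established human melanoma line with an activating BRAF mutation. The 10 genes are ETS1, ETS2, ETV1, ETV4, ETV5, ELK1, ELK3, ELK4, ELF1 and GABPA, out of 63086 genes in the count table and 28 ETS genes in the human genome. They were chosen by family membership and with the difference between the genotypes known. Above all, this was the higher ETS1 and the lower ETV4 level in knockout cells. Their differences and calls are therefore given as a description, not as a test. All 10 were among the 16046 genes with enough counts to enter the comparison, with 555 to 5592 estimated counts in a library.

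Each genotype had 3 libraries, which the submitters call biological replicates. The wild-type cells were A375 cells grown in parallel and not targeted, and the knockout cells were A375 cells edited at DUS1L with CRISPR/Cas9 and taken through clonal selection. No other allele or agent was named for either group. DUS1L makes dihydrouridine in tRNA. How many clones were used is not given in the sources used here, so an effect of the edit and a trait of a clone cannot be told apart.

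ETS factors bind DNA at a GGAA core through a shared winged helix domain, the ETS domain, and differ in the partners and signals that act on them. ERK, the last kinase of the RAS-RAF-MEK-ERK cascade that mutant BRAF drives in melanoma, phosphorylates ETS1, ETS2 and the ELK proteins, and it also keeps the genes of the PEA3 group (ETV1, ETV4 and ETV5) switched on. The ELK proteins act with SRF at early response genes, GABPA acts with a GABPB subunit at many housekeeping and mitochondrial genes, and ELF1 is best known from blood cells.

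Libraries held 17121315 to 18861514 estimated counts. DUS1L itself was at 77.6 ± 2.2 CPM (counts scaled to library size, with TMM factors) in the unedited cells against 54.4 ± 1.1 CPM in the edited ones (SD, n = 3 each; edgeR adjusted p = 1.7e-06), so the transcript was lower but present. Wild-type replicate 1 stood apart from the other wild-type libraries on the second principal component, which held 13.7% of the variance. The 12 melanocytic markers summed to 1377 to 1450 CPM in wild-type libraries and, with 3 of the 8 tested called lower, to 1183 to 1246 CPM in the knockout. Among them, SOX10, MITF, PAX3, CSPG4 and MCAM were present in every library. The pigmentation gene TYRP1 reached at most 0.790 CPM, DCT, PMEL and MLANA at most 0.488 CPM, and TYR was at 0 throughout. The 3 melanocytic markers called lower were SOX10, S100B and CSPG4. Summed over 8 leukocyte markers, the level was 36.3 to 39.5 CPM in unedited and 40.4 to 43.98 CPM in edited cells, most of it from CD68 (18.4 to 27.4 CPM over all libraries) and CORO1A, with the defining markers PTPRC at no more than 0.372 CPM and CD3E at 0. ITGAM was called higher, at 2.41 to 2.79 against 4.97 to 10.8 CPM, and CORO1A lower, at 12.2 to 15.8 against 9.14 to 10.3 CPM. The 6 endothelial markers summed to at most 4.16 CPM. The 6 fibroblast markers summed to 36.2 to 81.8 CPM in unedited cells and to 59.2, 176 and 66.1 CPM in knockout replicates 1, 2 and 3, the high value of replicate 2 coming from COL1A1 (101 CPM) and COL1A2 (57.9 CPM). No fibroblast marker was called higher and PDGFRB was called lower, at 10.6 to 13.1 against 5.21 to 7.22 CPM. The 6 epithelial markers summed to 466 to 516 CPM in unedited and 564 to 583 CPM in edited cells, nearly all of it KRT18, the one epithelial marker called (higher), while EPCAM and CDH1 reached at most 0.379 CPM and KRT5 was at 0. The part of these marker differences in the results was not tested.

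In knockout cells, 4 of the 10 factors were called higher (ETS1, ETS2, ELF1 and ELK4) and 4 lower (ETV1, ETV4, ETV5 and ELK3) at an adjusted p under 0.05 in the edgeR fit over all genes. In that fit 41.2% of all tested genes were called, 20.5% higher and 20.7% lower, and nothing is read from the count of factors called, since the same contrast chose them. The 3 libraries of one genotype lay wholly on one side of the other genotype for 8 of 10 factors, against 51.1% of all tested genes. A test against a change of 1.5-fold called ETS1, ETV1 and ETV4, against 3.58% of all tested genes. Nothing is read from the count of separate groups or of 1.5-fold calls either, for the same reason. The median log2 fold change was 0.11 over the 10 factors and -0.004 over all tested genes. In bulk RNA, a change in every cell cannot be told apart from a change in the share of cells that carry the transcript.

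Sequence upstream of the start site is shown for 3 of the factors, because their promoters hold the letters that ETS proteins or SP1 family proteins favour. RefSeq promoter windows (GRCh38.p14), each with 250 bases before and 50 after a start, matched 7 of the 10 factors, and ETS1, ETV4 and ETV5 had no match. The 250 upstream bases are printed 5′ to 3′ on the gene's strand, with capitals for CCGGAAGT, a full ETS site, and for GGGCGG, a GC box, in either orientation. ELK4 lies on the minus strand (chr1:205632012-205632261), GABPA on the plus strand (chr21:25734722-25734971) and ELK3 on the plus strand (chr12:96194125-96194374).
ELK4: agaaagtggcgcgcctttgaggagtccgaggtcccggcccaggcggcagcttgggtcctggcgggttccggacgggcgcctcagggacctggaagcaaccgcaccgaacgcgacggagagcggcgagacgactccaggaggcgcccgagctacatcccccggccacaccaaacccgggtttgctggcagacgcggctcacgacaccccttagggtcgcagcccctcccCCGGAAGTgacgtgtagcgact
GABPA: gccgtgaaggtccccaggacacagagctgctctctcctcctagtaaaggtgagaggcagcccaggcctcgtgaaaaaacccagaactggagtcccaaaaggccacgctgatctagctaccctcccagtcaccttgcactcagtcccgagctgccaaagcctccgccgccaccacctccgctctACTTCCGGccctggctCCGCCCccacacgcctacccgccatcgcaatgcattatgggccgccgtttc
ELK3: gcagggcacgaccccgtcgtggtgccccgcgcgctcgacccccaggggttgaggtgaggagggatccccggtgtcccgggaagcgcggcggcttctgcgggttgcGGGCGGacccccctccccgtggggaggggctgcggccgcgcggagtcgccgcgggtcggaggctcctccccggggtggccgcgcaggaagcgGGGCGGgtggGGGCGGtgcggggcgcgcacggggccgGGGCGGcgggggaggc

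The full ETS site began 22 bases before the start of ELK4 and 67 bases before that of GABPA, there in the reverse orientation. Across all 35116 promoter windows, 4.14% held CCGGAAGT on either strand. The shorter GGAAGT, which lies inside the full site, was found in both of these and, after the start, in ETS2 and ETV1, against 22.8% of all windows. ELK3 held 5 GC boxes in its window, ELK1 and GABPA 1 each, and 45% of all windows held at least 1. None of the 7 windows held TGACGTCA (1.85% of all windows), TGANTCA (7.71%) or TGAATGAA, the octamer bound by the ETV4 repressor CIC (1.65%). Where a gene had several starts, the window nearest to its canonical start was used. For ELF1 that window lay 36417 bases from the canonical start and for ELK1 41 bases. The 2 factors with the full site, ELK4 and GABPA, were at log2 fold changes of 0.22 and 0.17.

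ETS1 and ETS2, the founding pair of the family and both targets of ERK, were higher in knockout cells. ETS1 (ENSG00000134954.14, chromosome 11 from 128458761 to 128587558, minus strand) was at 135, 123 and 141 CPM in wild-type replicates 1, 2 and 3 and at 297, 295 and 288 CPM in knockout replicates 1, 2 and 3. Every knockout library was above every wild-type library, and the means of 133 ± 8.9 and 293 ± 4.6 CPM (SD, n = 3 each) differ by a log2 fold change of 1.14 (SE 0.06), or 2.21-fold. ETS2 (chromosome 21 from 38805183 to 38824955, plus strand) was at 35.7, 30.1 and 36.6 CPM in the wild-type libraries, and the knockout gave 51.0, 48.1 and 45.3 CPM. Its groups did not overlap either, with a smaller difference of 0.50 on the log2 scale (SE 0.08), or 1.41-fold.

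All 3 members of the PEA3 group were lower. ETV4 (ENSG00000175832.13, chromosome 17 from 43527844 to 43579620, minus strand) was at 206, 220.1 and 209.8 CPM in wild-type cells and at 124, 126 and 124 CPM in the knockout, a log2 fold change of -0.76 (SE 0.05) that left 58.9% of the wild-type level. ETV1 (chromosome 7 from 13891229 to 13991425, minus strand), a lineage factor in gastrointestinal stromal tumours and an oncogene in some melanomas, was at 56.2, 56.4 and 55.6 CPM in wild-type cells, with the knockout at 29.9, 33.7 and 32.1 CPM. Both sets of libraries were tight and far apart, with 56.9% of the wild-type level of ETV1 left (log2 fold change -0.81, SE 0.07). ETV5 (chromosome 3 from 186046314 to 186110318, minus strand) was at 85.9, 86.4 and 93.7 CPM against 75.3, 74.5 and 76.9 CPM. Its groups were also separate, but its difference was the smallest of the PEA3 group (log2 fold change -0.23, SE 0.06).

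The 3 ELK factors, partners of SRF, did not share a direction. ELK3 (chromosome 12 from 96194375 to 96269824, plus strand), which can repress transcription until ERK phosphorylates it, was at 119.6, 118 and 117 CPM in wild-type cells, with the knockout at 103, 96.2 and 109 CPM (log2 fold change -0.20, SE 0.06). It was not called without knockout replicate 2, its lowest library, where the log2 fold change was -0.16. ELK4 (chromosome 1 from 205597556 to 205632011, minus strand) was higher, at 75.6, 81.7 and 77.2 CPM in knockout against 68.4, 65.4 and 67.1 CPM in wild-type libraries (log2 fold change 0.22, SE 0.06). ELK1 (chromosome X from 47635521 to 47650604, minus strand) was not called, with 77.1, 79.999 and 76.1 CPM in wild-type cells, 81.4, 81.4 and 79.9 CPM in the knockout, overlapping groups and a log2 fold change of 0.06 (SE 0.06).

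ELF1 was higher and GABPA was not called. ELF1 (chromosome 13 from 40931924 to 41061440, minus strand) was at 53.9, 45.5 and 52.6 CPM in wild-type cells, with the knockout at 68.9, 61.7 and 70.0 CPM (log2 fold change 0.40, SE 0.08, or 1.32-fold), and the groups did not overlap. GABPA (chromosome 21 from 25734570 to 25772460, plus strand) was at 49.97, 40.8 and 41.0 CPM against 52.6, 46.9 and 48.2 CPM. Its groups overlapped through wild-type replicate 1, the library that stood apart, and without that library GABPA was called higher (log2 fold change 0.27 in place of 0.17). Scaling by library size alone also gave a call, at 0.21.

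**Figure D1:**
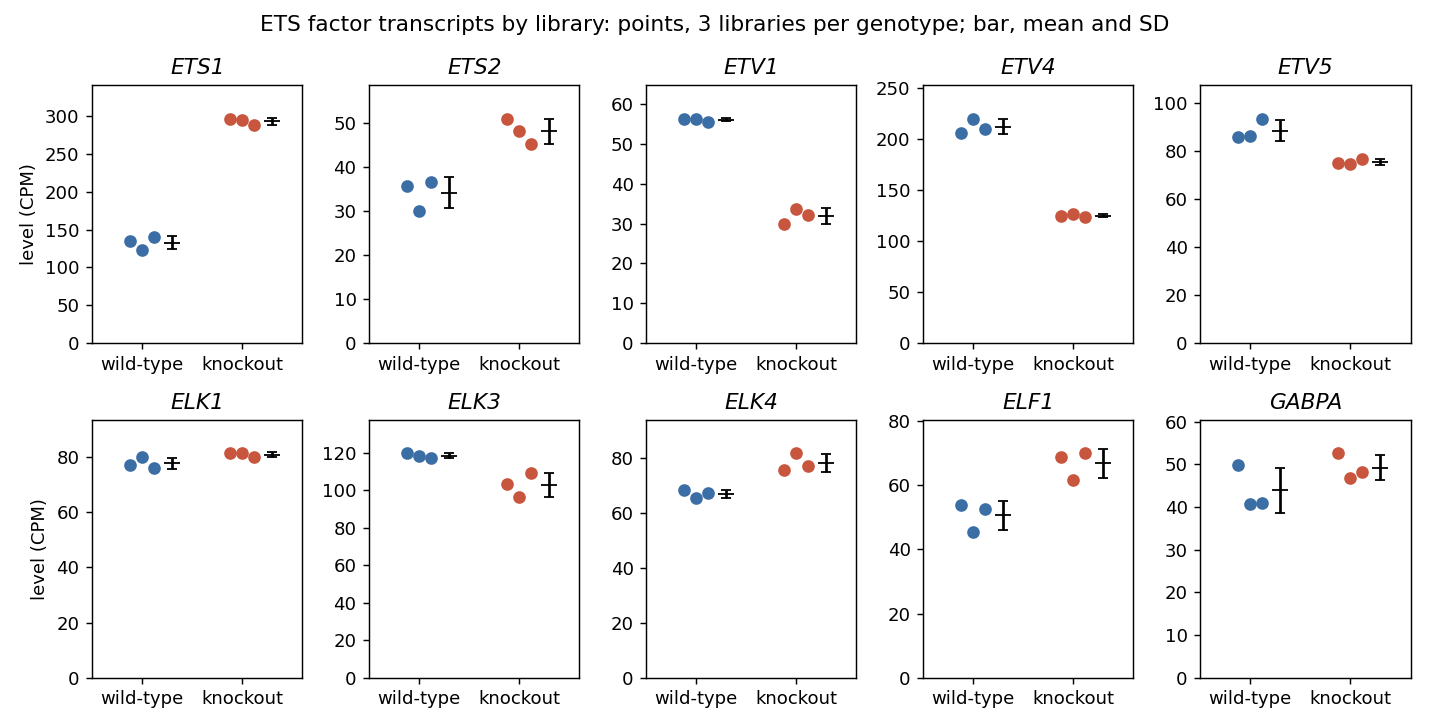
Level of each ETS factor transcript in CPM (vertical axis, from 0, a separate scale per gene) in the 3 wild-type (blue) and 3 knockout (red) libraries; black bars are the mean and SD. ETS1 sits at 123 to 141 CPM without and 288 to 297 CPM with the knockout, ETV4 at 206 to 220.1 and 124 to 126 CPM, and ELK1 and GABPA overlap.

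The order of levels within the family differed between the genotypes. Per unit of exon length, in TPM (length-scaled transcript units), ETV4 was first of the 10 in wild-type cells at 216 ± 7.2 TPM and ETS1 came after ELK3 and ELK1 at 66.6 ± 5.3 TPM. In knockout cells ETS1 was first at 156 ± 2.2 TPM and ETV4 second at 135 ± 0.45 TPM, and the libraries of the pair did not overlap in either genotype. As a ratio of CPM values, ETS1 over ETV4 was 0.654, 0.560 and 0.670 in wild-type and 2.39, 2.33 and 2.33 in knockout libraries. Every knockout ratio was above 1 and every wild-type ratio below it, and gene length has no bearing on how far the ratio moved.

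In between, wild-type cells had ELK3 at 91.2 ± 0.91 TPM and ELK1 at 81.9 ± 1.5 TPM. Below ETS1 came ETV5 at 55.0 ± 3.6, ELF1 at 40.9 ± 3.9, GABPA at 27.4 ± 3.1, ETS2 at 24.6 ± 2.8, ETV1 at 20.9 ± 0.18 and ELK4 at 19.7 ± 0.58 TPM (SD, n = 3 each). Of the neighbours in this order, GABPA and ETS2 did not differ beyond their spread, and the places of ETS2, ETV1 and GABPA depended on which transcript length was used. In knockout cells the order after ETS1 and ETV4 was ELK1 at 90.6 ± 0.73, ELK3 at 84.2 ± 5.8, ELF1 at 57.3 ± 4.3, ETV5 at 49.8 ± 1.1, ETS2 at 36.8 ± 2.2, GABPA at 32.6 ± 2.1, ELK4 at 24.4 ± 0.83 and ETV1 at 12.7 ± 0.69 TPM. There ELF1 and ETV5 changed places with either other transcript length, ETS2 and GABPA overlapped, and ELK1 and ELK3 differed by less than the sum of their SDs.

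Summed over all 28 ETS genes, the family stood at 895 ± 22 TPM in wild-type and 957 ± 13 TPM in knockout cells. TPM scales each library to its own sum of length-divided counts and carries no TMM factors. Knockout values stood higher relative to wild-type in TPM than in CPM. ELK1, for example, was at 81.9 against 90.6 TPM but at 77.7 against 80.9 CPM. The small difference in the family total is therefore not read as a change. It was far smaller than the difference in make-up. ETS1 and ETS2 together made up 10.2% ± 0.70 of that sum in wild-type and 20.2% ± 0.43 in knockout cells, and the PEA3 group 32.6% ± 0.90 and 20.6% ± 0.32. With the longest transcript of each gene as its length, these shares were 10.3% and 20.9% for the first pair and 37.0% and 23.7% for the PEA3 group. The 3 ELK factors held 21.6% ± 0.45 and 20.8% ± 0.35, and the repressors ERF and ETV3 as a pair 21.0% ± 0.24 and 20.8% ± 0.20. These shares restate the levels that chose the genes and carry no test.

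**Figure D2:**
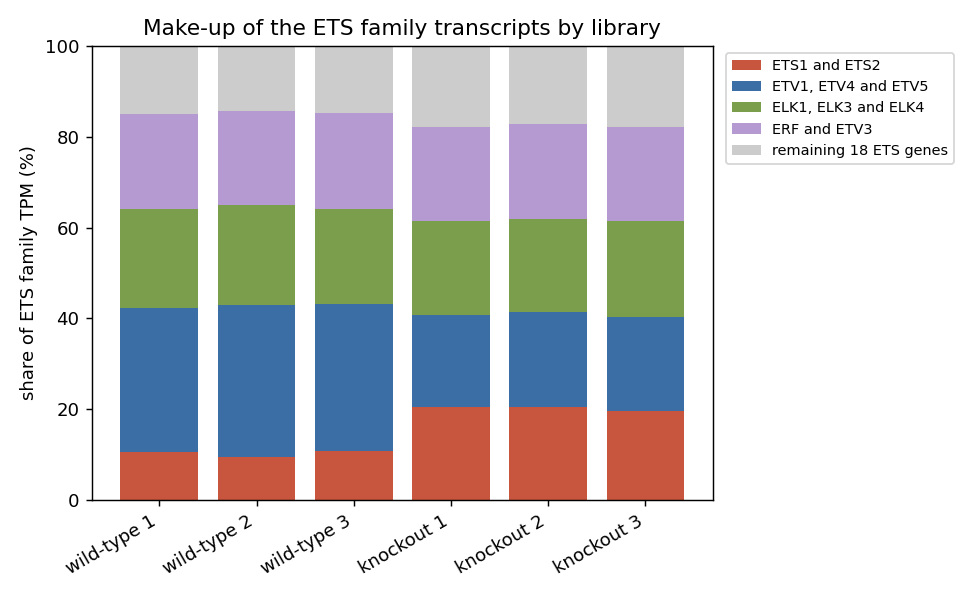
Share of the summed TPM of the 28 ETS genes (vertical axis, percent) taken by 4 groups of genes and by the remaining 18 genes, in each library. The share of ETS1 and ETS2 is about 10.2% in wild-type and 20.2% in knockout libraries, while that of ETV1, ETV4 and ETV5 goes from 32.6% to 20.6%.

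Outside the 10 listed factors, 9 of the other 18 ETS genes had enough counts to be tested, of which 3 were higher, 1 was lower and 5 were not called (median log2 fold change 0.21). That count is near the 41.2% called among all tested genes, and nothing is read from it. ETV3, a repressor, rose from 88.3 ± 7.4 to 124 ± 1.7 CPM (log2 fold change 0.49, adjusted p = 2.55e-06, edgeR). ELF4, the closest relative of ELF1 outside the listed factors together with ELF2, rose from 34.0 ± 1.9 to 49.3 ± 1.1 CPM (0.54, adjusted p = 6.99e-06), whereas ELF2 was at 26.7 ± 0.33 and 26.4 ± 2.2 CPM (-0.02, adjusted p = 0.892). ERF, a repressor that ERK sends out of the nucleus, fell from 128 ± 5.7 to 110.4 ± 1.6 CPM (-0.21, adjusted p = 0.00413).

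ETV7 was called at a low level, 0.555 ± 0.15 against 1.42 ± 0.43 CPM (log2 fold change 1.35, SE 0.43, adjusted p = 0.0156), and the call was lost without wild-type replicate 2, without knockout replicate 1 or 3, and with DESeq2 (adjusted p = 0.0851, 0.0758, 0.0817 and 0.0563). FLI1, the neighbour of ETS1 on chromosome 11, was at 19.7 ± 1.7 and 22.7 ± 1.5 CPM (adjusted p = 0.102). The repressor ETV6 was at 30.01 ± 2.6 and 26.0 ± 0.71 CPM (adjusted p = 0.0662) and was called lower, at -0.28 with an adjusted p = 0.0159, when wild-type replicate 1 was left out, and after correction for GC content and length (-0.24, adjusted p = 0.0259). ETV2 and EHF stayed under 2 CPM and were not called (adjusted p = 0.11 and 0.0846). Their log2 fold changes were -0.76 (SE 0.37) and 0.90 (SE 0.41), with groups that did not overlap, so these values are imprecise and do not show an unchanged level. The untested genes, among them the leukocyte factors SPI1 and SPIB and the endothelial factor ERG, reached at most 0.809 CPM in any library, and ELF5 and SPIC were at 0 in all 6.

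**Figure D3:**
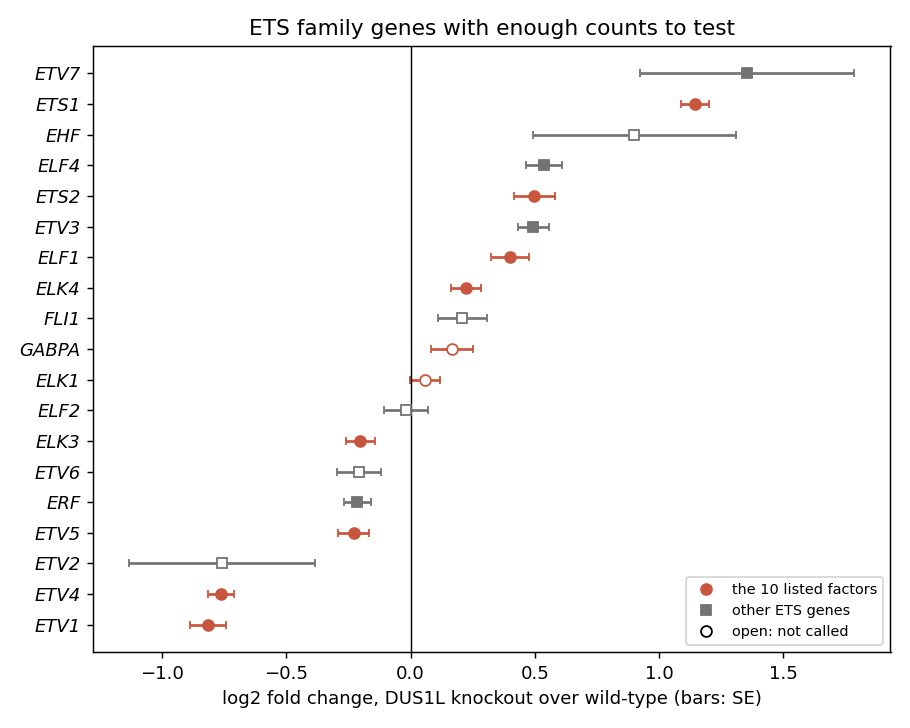
Log2 fold change of knockout over wild-type (horizontal axis, bars are SE) for the 19 tested ETS genes, with the 10 listed factors as red circles, other ETS genes as grey squares and open symbols for genes not called. ETV7 (1.35, with a wide SE), ETS1 (1.14), ELF4 (0.54), ETS2 (0.50) and ETV3 (0.49) are called on the right, ETV4 (-0.76) and ETV1 (-0.81) on the left, and EHF and ETV2, at low counts, are open.

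The genes beside the ETS factors on the chromosome were tested as measurements that the choice of factors did not use, apart from neighbours that overlap their factor and may share reads with it. These are DHX8 (ETV4), DGKG (ETV5, 4651 bases on the same strand), MFSD4A (ELK4, 5363 bases on the opposite strand) and ATP5PF (GABPA). Of the 20 nearest tested protein-coding neighbours, 1 on each side of each factor, 2 were higher, 5 were lower and 13 were not called, beside the 41.2% called among all genes. Neither neighbour of ETS1, ETS2, ETV4, ETV5, ELK4 or ELF1 was called, although scaling by library size alone gave a call for FLI1 beside ETS1 (log2 fold change 0.25, adjusted p = 0.047) and for DUSP3 beside ETV4 (0.17, adjusted p = 0.0479). DUSP3 was also called when wild-type replicate 1 was left out (0.18, adjusted p = 0.0309). KCNJ15 beside ETS2, at 0.682 ± 0.19 and 1.20 ± 0.22 CPM, had groups that did not overlap (log2 fold change 0.81, SE 0.42, adjusted p = 0.125, edgeR). MFSD4A beside ELK4 was at 0.718 ± 0.18 and 0.710 ± 0.30 CPM (-0.02, SE 0.47). The values of KCNJ15 and MFSD4A are imprecise and do not show an unchanged level. The ETV4 gene lies wholly inside DHX8, a splicing helicase gene on the opposite strand, and DHX8 was at 94.8 ± 1.9 and 93.0 ± 4.9 CPM (log2 fold change -0.03, SE 0.06, adjusted p = 0.743, edgeR). The strand setting of the counting is not given in the sources used here, so reads where the pair overlaps cannot be told apart.

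Beside ETV1, the ether lipid oxygenase gene AGMO, 1209 kb away, fell by 1.61 on the log2 scale (SE 0.12, adjusted p = 3.11e-09), with means of 22.8 ± 1.0 and 7.46 ± 1.1 CPM. Beside ELK3, the leukotriene enzyme gene LTA4H was lower (-0.17, adjusted p = 0.026) and the kinase gene CDK17 higher (0.33, adjusted p = 0.00112). Leaving out wild-type replicate 2, knockout replicate 1 or knockout replicate 3, or scaling by library size, ended the call of LTA4H (adjusted p = 0.0899, 0.0882, 0.0573 and 0.0948). UXT, the chaperone-like gene next to ELK1, fell by 0.30 (adjusted p = 0.00167).

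GABPA shares 1104 bases with ATP5PF, an ATP synthase subunit gene on the opposite strand whose start lies inside GABPA. ATP5PF fell by 0.42 on the log2 scale (SE 0.07, adjusted p = 3.53e-05), with means of 88.1 ± 6.2 and 65.7 ± 3.3 CPM, the other way from the value of GABPA. APP, on the far side of GABPA, was lower by less (-0.15, adjusted p = 0.0197), and leaving out wild-type replicate 2 or 3 or knockout replicate 1 or 2, or scaling by library size alone, ended the call (adjusted p = 0.0514 to 0.0957).

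**Figure D4:**
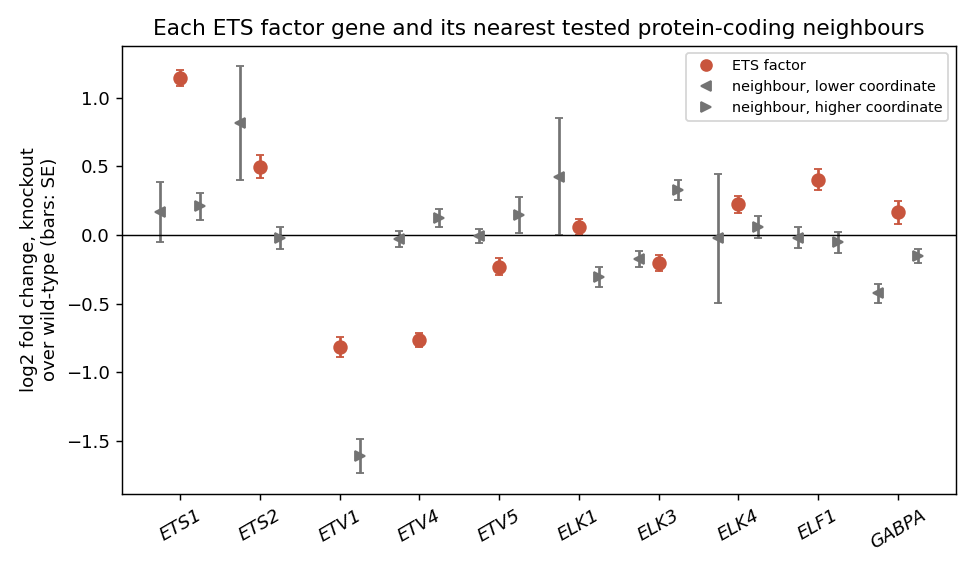
Log2 fold change of knockout over wild-type (vertical axis, bars are SE) for each ETS factor gene (red circles) and its nearest tested protein-coding gene on either side (grey triangles; for ETV1, the gene at the higher coordinate is shown). The neighbours of ETS1 and ETV4 lie between -0.03 and 0.21, apart from the factors at 1.14 and -0.76, and AGMO beside ETV1 is at -1.61.

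The genes whose pattern over the 6 libraries was most like that of ETS1 or ETV4 were found by the root mean square distance between centred log2 profiles among 11022 protein-coding genes. AMOTL2, a Hippo pathway scaffold, was nearest to ETS1 (distance 0.022 on the log2 scale), with 104, 99.7 and 112 CPM in wild-type cells against 237, 231 and 226 CPM in the knockout. SLC3A2, an amino acid transporter chain, and TUFT1 followed at 0.051 and 0.053. Nearest to ETV4 was ID1, an inhibitor of helix-loop-helix factors (distance 0.029), with 139, 145 and 134 CPM against 81.9, 85.8 and 82.0 CPM, followed by the microtubule regulator STMN1 at 0.038 and the spliceosome gene SNRPB2 at 0.039. With 2 groups of 3 libraries, such likeness rests mainly on the size of the difference between the groups.

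Upstream of the ETS factors, transcripts of the RAS-RAF-MEK-ERK cascade were higher for 6 of 20 genes, lower for 3 and not called for 11 (median log2 fold change 0.06). None passed the test against 1.5-fold. Among all tested genes 41.2% were called, and 3.58% against 1.5-fold, so nothing is read from these counts. PEA15, which holds ERK in the cytoplasm, rose from 380.3 ± 7.6 to 557 ± 7.7 CPM (log2 fold change 0.55, adjusted p = 1.58e-08, edgeR). MAPK3, which encodes ERK1, fell by 0.47 on the log2 scale from 60.1 ± 4.1 to 43.3 ± 1.5 CPM (adjusted p = 2.23e-05), and the ERK-activated kinase gene RPS6KA1 fell by 0.46 (adjusted p = 1.86e-05). BRAF, named here after its values were seen, rose from 38.3 ± 0.82 to 53.5 ± 3.4 CPM (0.48, adjusted p = 2.23e-05).

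Genes known as readouts of ERK signalling were called in both directions. Of 15, 7 were higher, 4 lower and 4 not called (median 0.19), beside 41.2% called among all tested genes. Against 1.5-fold, 2 were higher and 0 lower, beside 3.58% of all tested genes. The list was drawn up with earlier results known, so nothing is read from these counts. The receptor gene EPHA2 rose from 153 ± 8.5 to 318 ± 5.9 CPM (1.05, adjusted p = 9.99e-12), and EGR1 and the AP-1 gene FOSL1 rose by 1.03 and 0.54 (adjusted p = 6.3e-09 and 7.37e-08). The ERK phosphatase gene DUSP6 fell from 268 ± 21 to 191 ± 7.8 CPM (-0.49, adjusted p = 1.09e-06) and PHLDA1 fell by 0.23 (adjusted p = 0.00172). ETV4 and ETV5, often counted among such readouts, were lower as well. A link of these differences to ERK signalling was not tested.

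Among SRF, its MRTF coactivators and early genes of the SRF and ELK complex, 11 of 12 were higher, none was lower and 1, MRTFB, was not called (median 0.56). Of all tested genes, 20.5% were called higher. FOSB rose from 22.5 ± 1.0 to 60.7 ± 4.9 CPM (1.43, adjusted p = 4e-11) and IER2 from 229 ± 11 to 357 ± 23 CPM (0.64, adjusted p = 2.35e-08), while the ELK factors themselves differed by 0.22 or less on the log2 scale in either direction. The list was drawn up with the higher early genes of these cells already known, so its count is no separate evidence of their direction.

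**Figure D5:**
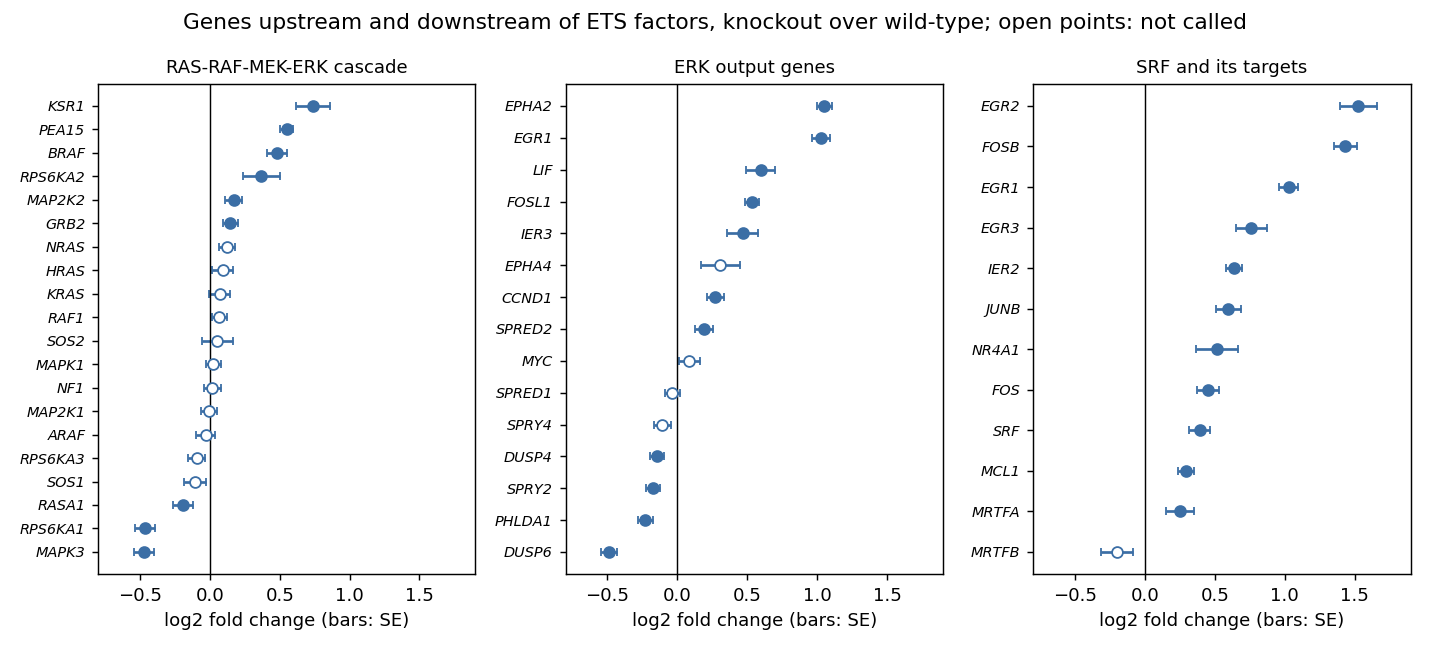
Log2 fold change of knockout over wild-type (horizontal axis, bars are SE) for genes of the RAS-RAF-MEK-ERK cascade, ERK output genes, and SRF with its targets; open points were not called. Cascade genes lie between MAPK3 at -0.47 and KSR1 at 0.74, ERK output genes between DUSP6 at -0.49 and EPHA2 at 1.05, and 11 of 12 SRF genes are called on the right.

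Genes that control the PEA3 group gave 1 higher, 3 lower and 6 not called of 10 (median -0.06). This is near the 41.2% called among all tested genes, so the count is not read as a result. CIC, the repressor of the ETV1, ETV4 and ETV5 genes, was at 92.9 ± 9.4 and 92.1 ± 3.6 CPM (log2 fold change -0.01, SE 0.07, adjusted p = 0.909). Of the ataxin proteins that bind CIC, ATXN1 fell by 0.43 (adjusted p = 0.00023) and ATXN1L rose by 0.38 (adjusted p = 0.000352). COP1, the ubiquitin ligase for the PEA3 proteins, was at 60.5 ± 2.3 and 56.1 ± 2.3 CPM (-0.11, SE 0.07, adjusted p = 0.201), and RBX1, the RING subunit of cullin ligases, fell from 51.9 ± 1.1 to 38.1 ± 2.0 CPM (adjusted p = 4.34e-05). CIC and COP1 are given outside the naming rule, with their values known.

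The GABPB partners of GABPA were called higher. GABPA itself was not called, with a value in the same direction (log2 fold change 0.17, SE 0.08). GABPB2 rose from 10.8 ± 0.51 to 17.7 ± 2.2 CPM (0.71, adjusted p = 7.16e-05) and GABPB1, named after its values were seen, from 55.3 ± 1.9 to 66.5 ± 2.8 CPM (0.27, adjusted p = 0.00265). In the list of these partners with mitochondrial genes, 4 of 16 were higher, 5 lower and 7 not called (median 0.05), with the heme A synthesis gene COX10 at 0.45 (adjusted p = 5.7e-05) and the mitochondrial rRNA methylase gene TFB1M at -0.59 (adjusted p = 1.93e-05). Of 14 partners and regulators of ETS1, 4 were higher, 3 lower and 7 not called (median 0.10). Both lists stand beside 41.2% called among all tested genes, and nothing is read from their counts. RUNX1, which binds DNA together with ETS1, rose from 79.2 ± 8.7 to 125 ± 9.3 CPM (0.66, adjusted p = 1.8e-06), whereas the kinase gene CAMK2D fell by 0.51 and the melanocyte factor gene SOX10 by 0.33 (adjusted p = 6e-06 and 5.11e-05).

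Matrix and invasion genes known for ETS sites did not move together with ETS1. Of 15 tested, 3 were higher, 7 lower and 5 not called (median -0.06), and PLAU had too few counts to be tested. The share called among all tested genes was 41.2%. The protease gene MMP3, at a low level, rose from 0.694 ± 0.37 to 3.03 ± 1.1 CPM (log2 fold change 2.12, adjusted p = 0.00024). The membrane protease gene MMP14 fell from 165 ± 8.7 to 110.2 ± 6.3 CPM (-0.58, adjusted p = 1.68e-07) and the matrix protein gene TNC from 913 ± 43 to 692 ± 18 CPM (-0.40, adjusted p = 2.19e-06).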

How the data were processed

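RNA-seq of 3 wild-type and 3 DUS1L knockout libraries was used, grouped by sample title. The authors deposited 1 table of each gene's estimated count in each library, not normalized and not always whole. The build was GRCh38, per the submitters' processing notes, and the aligner, counting tool and strand setting are not given in the sources used here. Of 63086 identifiers, 62541 (99.1%) matched GENCODE release 44 without version, which gave symbols, lengths and coordinates.

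Counts were rounded, genes kept by filterByExpr (minimum count 10; 14272 genes with a count were set aside), scaled by TMM and compared with edgeR 4.0.16 (R 4.3.3) through its quasi-likelihood F test (robust, group only), with Benjamini-Hochberg adjustment over all 16046 genes and a threshold of 0.05, two-sided; glmTreat tested against 1.5-fold. The fit was tested on simulated data in which far fewer genes differed than were called here, so that test does not give the rate of false calls in these data. A count of 3 equals 0.159 to 0.176 CPM, and SDs are over 3 libraries a group. TPM divides counts by the union of exons and scales each library to its own sum, without TMM factors. Libraries of a group differed by more than sampling noise (chi-square per degree of freedom 3.77 or more). P-values measure the spread between these libraries.

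The members and all lists were chosen with earlier results of these data known. Beside the 10 factors and tested ETS genes, the text names up to 3 called genes per list with the smallest p and 2 in the opposite direction, the nearest tested neighbours and 3 genes of like pattern. Alternatives were DESeq2 1.42.0, limma-voom (limma 3.58.1), library size alone, no count filter, a replicate block, offsets for GC content and length, each library left out, and other transcript lengths. Some genes that this rule names are not reported here.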

Additional observations from a re-analysis of the deposited data

How the results depend on the processing

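Over 13 alternatives (DESeq2, limma-voom, library size alone, no count filter, replicate block, offsets for GC content and length with and without that block, and each of the 6 libraries left out), each of the 10 factors kept the sign of its log2 fold change, and 127 of 130 values kept their side of the threshold. The log2 fold change was 1.09 to 1.19 for ETS1 and -0.78 to -0.71 for ETV4. The exceptions were ELK3, not called without knockout replicate 2, and GABPA, called without wild-type replicate 1 and with library size alone; the cause was not tested. With the test against 1.5-fold, 3 factors were called (1 higher, 2 lower) in place of 8, and 575 genes of all (371 higher, 204 lower) in place of 6608, since that test asks for a larger change. With replicate number as a block, 8 factors and 6241 genes were called. The numbers did not pair the libraries: same-numbered libraries' deviations correlated at -0.030, -0.001 and 0.026, and wild-type replicate 1 correlated best with knockout replicate 2. Among the other named genes, 755 of 780 values kept their side of the threshold, 19 lost a call and 6 gained one, and no called value changed sign. With the longest or the canonical transcript as length, 15 of 20 wild-type TPM ranks held, with moves for ETS2, ETV1 and GABPA, and 16 of 20 knockout ranks held, with ELF1 and ETV5 changing places. With 3 libraries a group, changes above 1.5-fold in genes of low count may also go uncalled. Examples are EHF, 1.87-fold higher, and ETV2, 1.69-fold lower (adjusted p = 0.0846 and 0.11, edgeR).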
